A study of Mus musculus with 35 samples.

Results

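The genes described here are 9 genes of the DNA methylation machinery, followed across the ChIP-Seq libraries of developing mouse retina. Dnmt1, Dnmt3a and Dnmt3b are DNA methyltransferases, and Uhrf1 brings Dnmt1 to newly copied DNA. Tet1, Tet2 and Tet3 oxidize methylated cytosine, and Mbd2 and Mbd3 are methyl-CpG-binding-domain proteins of the nucleosome remodelling and deacetylase (NuRD) complex. They are 9 of 21631 coding genes of the gene table, of which 19825 could be placed on the genome build of the peak lists. The list was named by hand, and Dnmt3a was selected on its measured H3K4me3 heights in these same libraries, since a peak inside the gene was absent by P14. The H3K4me3 values of Dnmt3a are therefore a description and carry no test, and no p-value is given for any of these genes in the comparison of H3K4me3 at P14 with P0.

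In vertebrates DNA methylation is placed on new sites by Dnmt3a and Dnmt3b and is copied to the daughter strand after replication by Dnmt1 with Uhrf1, so the last pair is used most by dividing cells. The Tet enzymes convert 5-methylcytosine to 5-hydroxymethylcytosine, which is abundant in neurons. Dnmt3a has an upstream start for its long form and an internal start for a shorter form that lacks the amino-terminal region, and Tet3 is also transcribed from more than 1 start. H3K4me3 marks the start sites of genes, H3K27Ac marks active starts and enhancers, and H3K27me3 marks regions held silent by Polycomb complexes.

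The wild-type groups were retinae of wild-type mice at postnatal days (P) 0, 12, 14 and 21. H3K27Ac and H3K4me3 had 2 libraries each at P0, P14 and P21 and 1 wild-type library each at P12. The Brg1-deficient group, labelled BRG1 -/-, was Brg1 Lox/Lox retinae with a Cre transgene of retinal progenitor cells at P12, with 2 H3K27Ac libraries and 1 H3K4me3 library. This Cre acts in a mosaic pattern, so these retinae can hold wild-type stripes beside deficient ones. The paper states that mice with small eyes, which had more extensive Cre expression, were preferred for the ChIP-Seq to lower the share of wild-type cells. Brg1, an ATPase of the SWI/SNF (BAF) chromatin remodelling complex, was mapped with an anti-FLAG antibody at P0 in mice whose own Brg1 carries a FLAG tag (1 library), and H3K27me3 in 9 libraries (2 each at P0, P14 and P21, and at P12 2 wild-type and 1 Brg1-deficient). The labels do not say whether replicates were separate animals or pools, so p-values measure the spread between these libraries only.

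Each library was a list of peaks called on that library alone, and the height of a peak is its fold enrichment over background. The lists held 17432 to 50004 H3K27Ac peaks and 18531 to 24121 H3K4me3 peaks. The number of reads behind a list is unknown, and a gene without a peak is a gene at which none was listed, not a gene without signal. The H3K27Ac libraries numbered 1 at P0, P14 and P21 listed 17432 to 18717 peaks and those numbered 2 listed 29303 to 50004, and each H3K27Ac result below is given per library for that reason. Of 12 retinal markers, 7 had an H3K27Ac peak at their start in each P0 library and 8 to 11 in each later library, and Rax, Crx and Otx2 had one in all 9. Of 8 markers of vessels and microglia at most 1 had one, and of 8 liver and muscle markers 1 to 3. Pmel of the pigment epithelium list and Bfsp1 of the lens list had one in all 9. The wild-type libraries also differed in the cell type markers listed. Of 12 markers of cycling and progenitor cells, 12 had an H3K27Ac start peak in both P0 libraries. At P14 2 and 9 had one, and at P21 1 and 7, with the lower count in the shorter list of each stage. Of 10 placed rod markers 1 had one in each P0 library and 10 in each later library. In whole retina, fewer cells of a type and less signal per cell cannot be told apart.

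For the genes on which the stage results turn, the 250 bases before the RefSeq start (build GRCm38.p6) are shown, since the marks described sit on them: Dnmt1 (chr9:20952624-20952873, minus strand), Uhrf1 (chr17:56304063-56304312, plus strand), the upstream start of Dnmt3a (chr12:3806910-3807159, plus strand) and its internal start (chr12:3891494-3891743, plus strand). Capitals mark the motif letters that were searched for on both strands.
Dnmt1: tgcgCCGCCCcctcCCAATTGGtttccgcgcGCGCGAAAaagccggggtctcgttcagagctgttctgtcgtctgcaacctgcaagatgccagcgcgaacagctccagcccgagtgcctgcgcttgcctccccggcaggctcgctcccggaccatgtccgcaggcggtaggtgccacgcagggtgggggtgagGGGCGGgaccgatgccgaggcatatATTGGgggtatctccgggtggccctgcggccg
Uhrf1: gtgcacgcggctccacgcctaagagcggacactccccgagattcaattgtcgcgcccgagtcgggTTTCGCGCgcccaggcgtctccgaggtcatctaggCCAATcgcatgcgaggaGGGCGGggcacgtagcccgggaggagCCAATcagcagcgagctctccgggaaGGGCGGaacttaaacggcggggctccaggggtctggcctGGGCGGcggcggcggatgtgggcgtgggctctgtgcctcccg
Dnmt3a upstream start: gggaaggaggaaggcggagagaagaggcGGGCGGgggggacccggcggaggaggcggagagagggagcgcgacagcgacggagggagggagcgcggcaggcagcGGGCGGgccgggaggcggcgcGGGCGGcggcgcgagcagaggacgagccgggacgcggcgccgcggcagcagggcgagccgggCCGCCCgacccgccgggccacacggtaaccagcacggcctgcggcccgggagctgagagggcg
Dnmt3a internal start: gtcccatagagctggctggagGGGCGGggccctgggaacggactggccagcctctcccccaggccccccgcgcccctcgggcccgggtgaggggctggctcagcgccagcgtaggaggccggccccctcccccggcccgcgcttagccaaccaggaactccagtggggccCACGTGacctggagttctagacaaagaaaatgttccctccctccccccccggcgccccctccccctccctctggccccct

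The GRCm38.p6 promoter table held 13 starts of 8 of the 9 genes (Mbd2 was not matched). The sequences differed in their number of CG pairs, the letters that these enzymes act on. The 250 bases before the upstream starts of Dnmt3a held 38 and 40 CG pairs and those before Tet2 held 51, against 15 before the internal start of Dnmt3a and 2 before the upstream start of Dnmt1. Over 32851 promoters of the table the median was 6, with 1 to 25 between the 10th and 90th percentile. The Dnmt1 promoter printed held 26 and the Uhrf1 promoter printed 30. A neighbouring Dnmt1 promoter that is not printed held 7, and the other Uhrf1 promoter held 10. TTTCGCGC, a form of the site of the cell cycle factors E2F, was found in the printed 1 of 2 Uhrf1 promoters, first base 185 before the start. As GCGCGAAA it was in the printed 1 of 3 Dnmt1 promoters, first base 219 before the start. This form was in 2 of the 13 promoters and in 0.256% of all 32851. The other E2F forms searched, TTTGGCGC (0.417% of all promoters) and TTTCCCGC (0.895%), were in 0 of 13. The GC box GGGCGG was in 11 of 13 (32.7% of all), and the CCAAT box CCAAT in 6 of 13 (33.8%). In the printed Dnmt1 promoter a CCAAT and its reverse ATTGG, with first bases 236 and 233 before the start, overlap. The E-box CACGTG was only in the internal promoter of Dnmt3a, first base 80 before the start (6.02% of all), and TATAAA only in that of Mbd3 (12.4%). GCATGCGC for NRF1 (2.26%), AAGATGGC for YY1 (1.56%) and TAATCC for the photoreceptor factor CRX (6.25%) were in 0 of 13. These are matches of letters and not measured binding.

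H3K4me3 was found at a start of all 9 genes in all 8 libraries of that mark, against 61.3% of the 19825 placed coding genes. H3K27Ac was less even. Dnmt3a, Tet2, Tet3, Mbd2 and Mbd3 had an H3K27Ac start peak in all 9 libraries (5 of 9 genes, against 29.7% of coding genes). All 9 genes had one in both P0 libraries. At P14 there were 5 and 7, and at P21 6 and 8, in the order of the replicate numbers. In the wild-type libraries numbered 2, which list more peaks, 7 of 9 genes had one at every stage, against 53.5% of coding genes, and the exceptions were Uhrf1 and Tet1. Heights below are scaled so that the median over regions with a peak in every library is the same in each library, and the 2 values of a stage are given in the order of the replicate numbers in the titles.

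**Figure D1:**
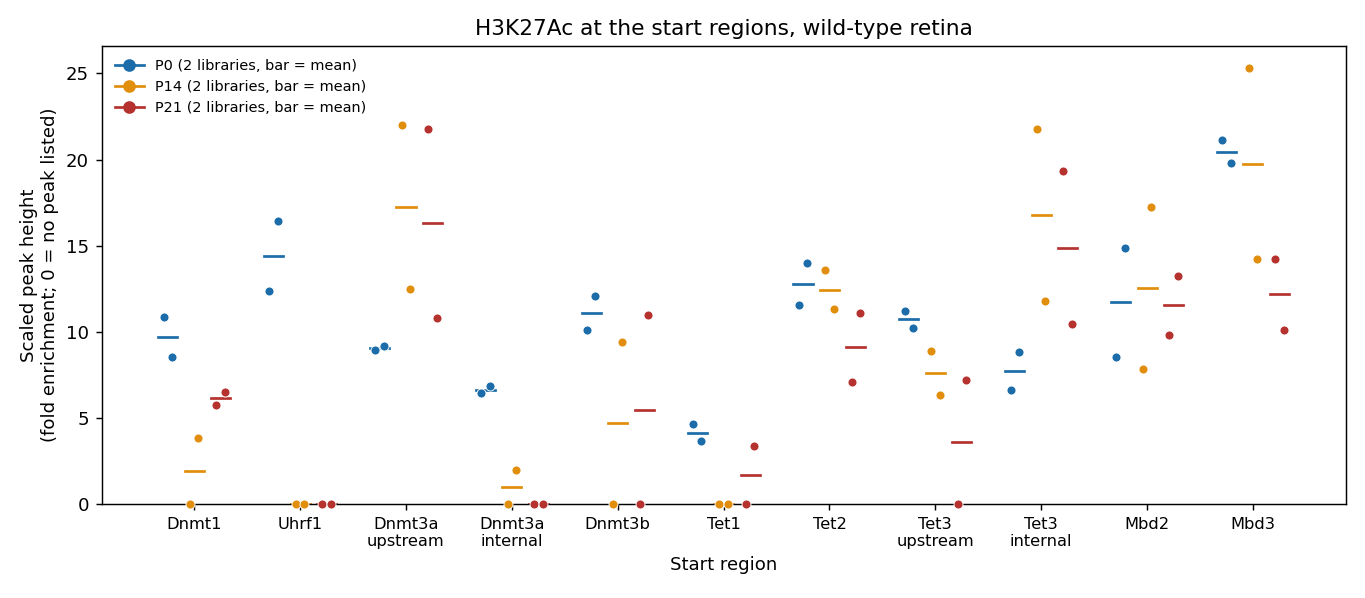
Scaled H3K27Ac peak height (fold enrichment) at the start regions of the 9 genes in the wild-type libraries of P0, P14 and P21. Each point is 1 library, a bar is the mean of a stage, and a point at 0 means that no peak was listed. Uhrf1 has peaks only in the P0 libraries, while the upstream start of Dnmt3a and the internal start of Tet3 are highest at P14 and P21.

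Among the maintenance genes, Uhrf1 had H3K27Ac peaks at its start at P0 and none at P14 or P21. The Uhrf1 region (mm9 chr17:56441822-56444504) had H3K27Ac heights of 12.39 and 16.46 at P0 and no peak in the 4 libraries of P14 and P21. A peak in both P0 libraries and in none of the later 4 was found at 1.16% of 11858 start regions of coding genes. The adjusted p for P21 against P0 was 0.0477 (limma over all H3K27Ac regions), where 2.46% of 33339 regions fell and 7.95% rose. The region entered the fit only through its peaks in the P0 libraries, so this p adds no support to the listing itself. It was over the threshold without P14 replicate 1 (adjusted p = 0.0525) or P21 replicate 1 (adjusted p = 0.183) and under other settings given with the limits, and without either P0 library the region could not be tested. Over all H3K27Ac regions 0 were called in this comparison without P0 replicate 1, P0 replicate 2, P14 replicate 1 or P21 replicate 1, and 7205 without P14 replicate 2. Between P14 and P0 it did not pass (adjusted p = 0.0893), and there 0% of regions were called, although 5337 had an unadjusted p under 0.05. At P12, Uhrf1 had no H3K27Ac peak in the wild-type library and a height of 3.42 in 1 of the 2 Brg1-deficient libraries.

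H3K4me3 stayed at the Uhrf1 start, with shorter peaks in the later libraries. The H3K4me3 heights were 43.86 and 65.09 at P0, 43.39 and 33.92 at P14, and 28.28 and 29.01 at P21, so the P21 values lay below both P0 values. This difference of -0.83 on the log2 scale did not pass the test (standard error, SE, 0.26, limma adjusted p = 0.0836), in a comparison where 15.6% of 21072 regions fell and 5.04% rose. Before scaling, the P21 heights (46.5 and 18.2) overlapped those of P0 (45.5 and 71.1), so their order depends on the scaling. The peak was 2231 and 2601 bp long at P0, 1263 and 1284 bp at P14, and 1619 and 1140 bp at P21. Its mean length at P14 and P21 was 0.527 and 0.571 of that at P0, against medians of 0.902 and 0.992 over 12217 start regions, which put Uhrf1 at percentiles 3.54 and 4.84.

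Dnmt1, the maintenance methyltransferase, had H3K4me3 in every library and H3K27Ac in all but P14 replicate 1. Its start region (mm9 chr9:20755868-20757841) had H3K27Ac heights of 10.85 and 8.53 at P0, no peak and 3.83 at P14, and 5.75 and 6.53 at P21. The later values lay below both P0 values, and the difference at P21 was -0.51 on the log2 scale (SE 0.59, adjusted p = 0.537). H3K4me3 at Dnmt1 was 45.90 and 45.48 at P0, 23.33 and 35.60 at P14, and 53.38 and 56.56 at P21. The scaled P21 values exceeded those of both earlier stages, with a difference from P0 of 0.25 (SE 0.25, limma adjusted p = 0.562) and from P14 of 0.86 (adjusted p = 0.493). Before scaling, the P21 heights (87.8 and 35.5) overlapped those of P0 (47.6 and 49.7), so the order of P21 and P0 depends on the scaling. None of the regions of this mark was called between P21 and P14 (0%), with 1742 at an unadjusted p under 0.05.

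Dnmt3a, which methylates new sites, has starts with unlike marks. The internal start region (mm9 chr12:3890865-3893079) lies 84.8 kb from the upstream start. It had H3K4me3 heights of 28.00 and 21.22 at P0 and no peak in the 4 libraries of P14 and P21, which is the pattern for which the gene was chosen. The upstream region had H3K4me3 heights of 32.14 and 33.94 at P0, 37.50 and 45.04 at P14, and 37.69 and 47.74 at P21. Of 861 coding genes with 2 or more H3K4me3 start regions, 39 (4.53%) had 1 region listed only in both P0 libraries and another listed in all 6. The start regions of 13034 coding genes held 188 (1.44%) with H3K4me3 in both P0 libraries and in none later. As the choice of Dnmt3a used these values, nothing is read from these shares.

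**Figure D2:**
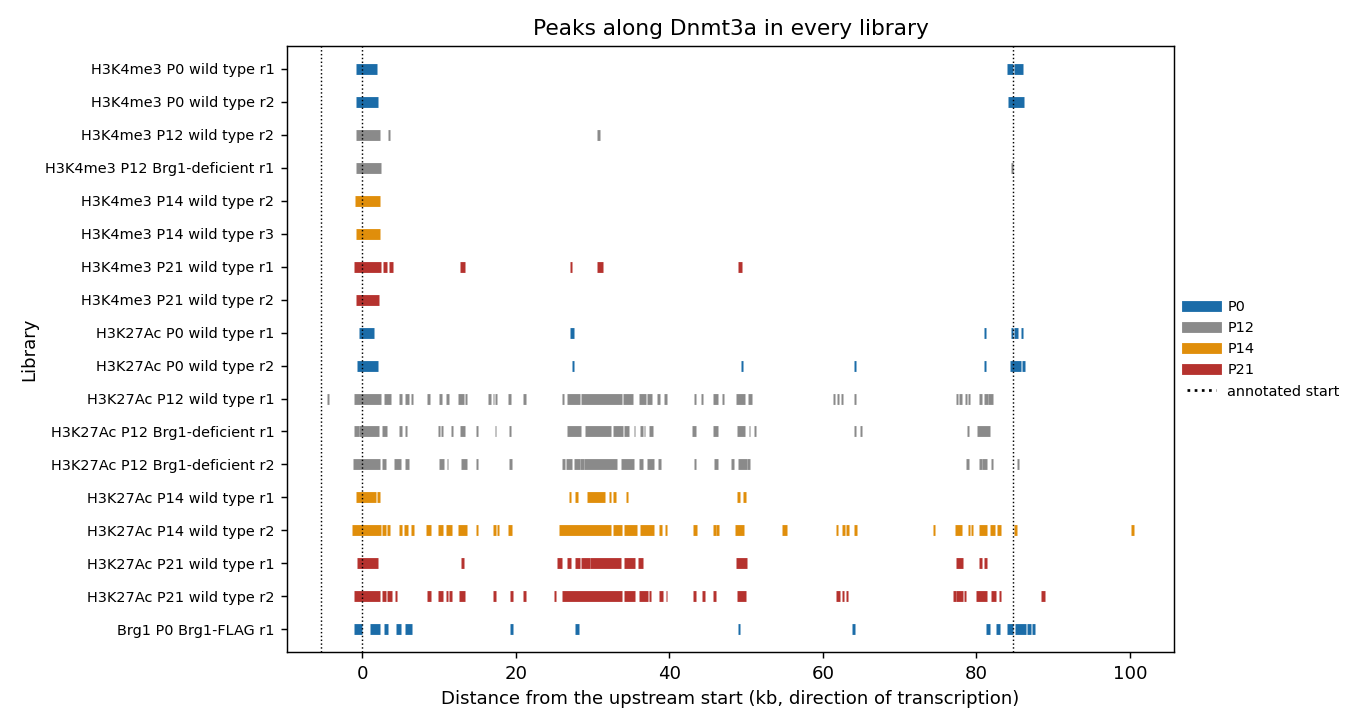
Peaks along Dnmt3a in all 18 peak lists, one row per library, by distance in kb from the upstream start, with bars as peaks, colours as stages and dotted lines as annotated starts. At the internal start, 84.8 kb away, both marks are broad only at P0, and H3K27Ac peaks between the starts are many at P12 and in the second libraries of P14 and P21.

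H3K27Ac, a mark that the choice did not use, was read at both Dnmt3a starts. The internal one had been picked for its loss of H3K4me3 over the same stages, so its H3K27Ac is not a separate test. At the internal start (mm9 chr12:3891310-3892627) the heights were 6.43 and 6.86 at P0, no peak and 2.0 at P14, and no peak in either library at P21. The limma adjusted p was 0.143 for P14 and at 0.05 for P21, on the threshold without passing it, and the call depended on the setting as given with the limits. The region entered the fit only through its peaks in the P0 libraries, so these p-values add no support to the listing. At the upstream start (mm9 chr12:3805493-3809251) the H3K27Ac heights were 8.94 and 9.17 at P0, 22.03 and 12.48 at P14, and 21.80 and 10.82 at P21. All 4 later values lay above both P0 values, but the libraries of a stage differed widely and the log2 differences of 0.75 and 0.66 (SE 0.51 each) did not pass (adjusted p = 0.725 and 0.483). The 5 coding genes whose H3K4me3 start regions followed the internal Dnmt3a start most closely over the 6 libraries were Pax2, Fbll1, Rtkn, Fbln2 and Slc17a6, each with Pearson r of 1.0 after rounding. Each had a peak only in the P0 libraries, and 371 of 13870 regions had r over 0.95, so the likeness is shared by many. A high r largely follows from that listing, which is also the pattern for which Dnmt3a was chosen. The P0 heights of the 5 genes ran from 4.16 and 3.52 at Fbll1 to 20.53 and 15.99 at Rtkn.

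Between the 2 starts of Dnmt3a more H3K27Ac peaks were listed after P0. Its gene body held 40 H3K27Ac regions outside the start regions, of which 2 and 4 had a peak at P0, 3 and 34 at P14, and 7 and 28 at P21. The counts of the second libraries carry most of this, and those libraries also list the most peaks in all. The highest of the regions spanned 8464 bp (mm9 chr12:3832234-3840697), with heights of 3.62 and 3.24 at P0, 17.67 and 8.61 at P14, and 17.13 and 11.67 at P21. The region beside it (mm9 chr12:3840902-3842652), 34.9 kb from the upstream start, had no peak at P0, heights of 4.61 and 4.75 at P14, and 13.79 and 8.78 at P21. The next, 37.0 kb from that start (mm9 chr12:3842794-3844895), had no peak at P0, no peak and 2.11 at P14, and 7.58 and 7.63 at P21. Both were called between P0 and P21 (adjusted p = 0.0477 and 0.0484, limma), 2 of 23 regions tested in this gene body. With no peak at P0, both entered the fit only through later libraries, so these p-values add no support to the listing. Without P0 replicate 1 or 2 both calls were lost (adjusted p = 0.457 and 0.396), as they were without P14 replicate 1 (adjusted p = 0.0525) or P21 replicate 1 (adjusted p = 0.183). The call of the second was also lost without P21 replicate 2 (adjusted p = 0.0667). A further region at 49.3 kb had no peak and 3.83 at P0, 7.64 and 5.42 at P14, and 6.11 and 8.78 at P21. At P12 the main block of this signal (mm9 chr12:3833348-3842445) had a height of 11.66 in wild type and 7.59 and 8.97 in the Brg1-deficient libraries. Of the wild-type libraries of P0, P14 and P21, only P21 replicate 1 listed H3K4me3 in the Dnmt3a gene body, at 6 regions.

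Dnmt3b, the other enzyme that methylates new sites, had both marks at 1 start region (mm9 chr2:153474653-153476344). H3K27Ac was 10.08 and 12.07 at P0, no peak and 9.42 at P14, and no peak and 10.95 at P21. The first libraries of P14 and P21 lacked the peak and the second libraries were near the P0 heights, and neither difference passed (adjusted p = 0.725 and 0.483). H3K4me3 was 44.72 and 48.42 at P0, 39.72 and 44.78 at P14, and 42.98 and 53.11 at P21 (P21 against P0, adjusted p = 0.937), so the stages overlapped.

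**Figure D3:**
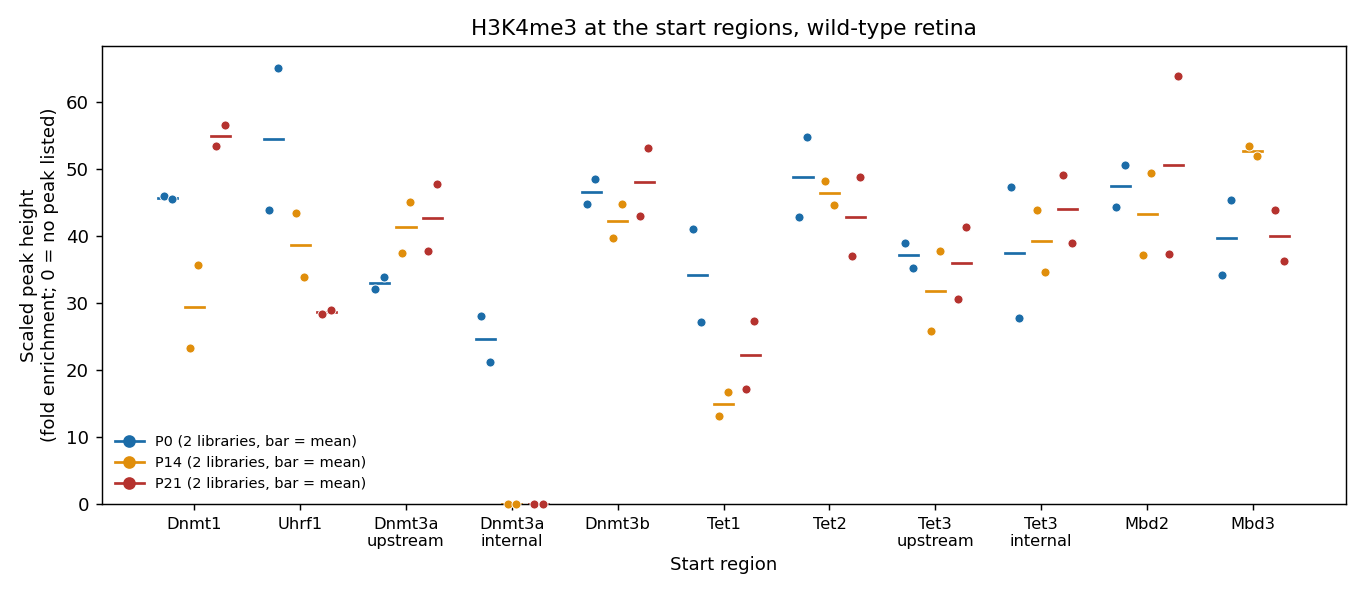
Scaled H3K4me3 peak height (fold enrichment) at the start regions of the 9 genes in the wild-type libraries of P0, P14 and P21. Each point is 1 library, a bar is the mean of a stage, and a point at 0 means that no peak was listed. Every gene keeps a peak at some start at every stage, and the internal start of Dnmt3a has a peak only at P0.

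Of the Tet genes, Tet3 had the longest peaks at a start and Tet1 the lowest H3K27Ac at P0. The internal start region of Tet3 (mm9 chr6:83383531-83393302), 15.5 kb from its upstream start, had H3K27Ac heights of 6.62 and 8.82 at P0, 21.79 and 11.76 at P14, and 19.32 and 10.44 at P21. The later values lay above both P0 values, with log2 differences of 0.90 and 0.75 (SE 0.51 each) that did not pass (adjusted p = 0.583 and 0.483). Its H3K27Ac peaks covered 1455 and 3771 bp at P0, 7316 and 9578 bp at P14, and 8237 and 8690 bp at P21. The mean length was 3.23 and 3.24 times that of P0, against medians of 1.2 and 1.11 over 5810 start regions, at percentiles 95.4 and 95.1.

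**Figure D4:**
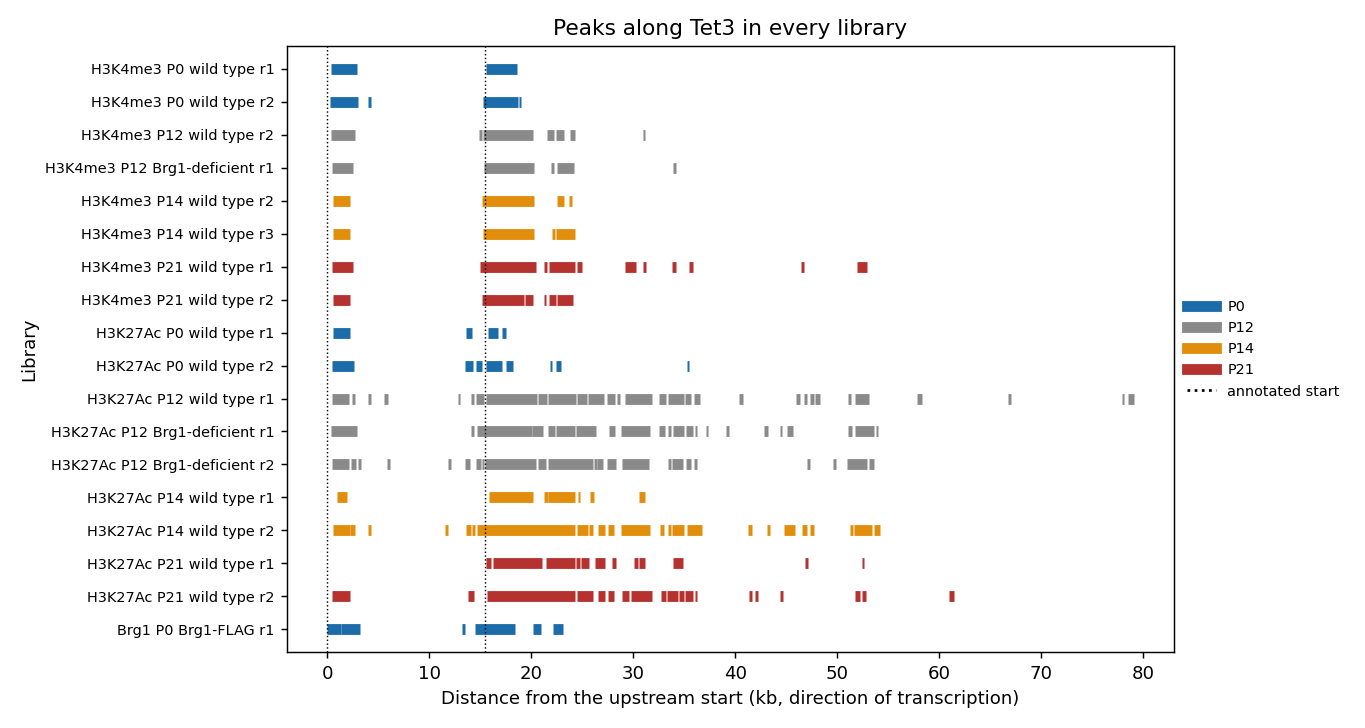
Peaks along Tet3 in all 18 peak lists, one row per library, by distance in kb from the upstream start, with bars as peaks, colours as stages and dotted lines as annotated starts. Around the internal start, 15.5 kb away, the H3K4me3 and H3K27Ac peaks of P14 and P21 extend farther into the gene than those of P0.

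H3K4me3 at the internal Tet3 start also covered more of the gene after P0. The heights were 47.23 and 27.81 at P0, 43.80 and 34.62 at P14, and 49.09 and 38.94 at P21 and overlapped (P21 against P0, adjusted p = 0.65). The lengths were 3031 and 3659 bp at P0, 5171 and 4917 bp at P14, and 5494 and 4891 bp at P21, a mean of 1.51 and 1.55 times that of P0 (percentiles 97.6 and 96.3). A separate H3K4me3 region 23.0 kb from the upstream start (mm9 chr6:83383536-83386146) had no peak at P0, heights of 7.57 and 7.45 at P14, and 9.44 and 18.91 at P21. The adjusted p between P0 and P21 was 0.00771 (limma), and the call was lost with no scaling (adjusted p = 0.0729) and with percentiles within each library in place of heights (adjusted p = 0.205). With no peak at P0, the region entered the fit only through its later peaks, so this p adds no support to the listing. A region at 21.4 kb (mm9 chr6:83386327-83386627) was listed at P21 and not at P0 or P14, with heights of 2.66 and 5.17, and is given without a test since it entered the fit only through these peaks. At P12 the region at 23.4 kb that overlaps the first of these had H3K4me3 of 6.48 in wild type and 10.04 in the Brg1-deficient library.

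In H3K27Ac a region of the same gene was also called between P0 and P21, 25.3 kb from the upstream start (mm9 chr6:83381651-83383417). It had no peak at P0, 7.20 and 4.03 at P14, and 9.06 and 6.87 at P21 (limma adjusted p = 0.0477). This region too entered the fit only through its later peaks, so the p adds no support to the listing. It was 1 of 10 regions tested in the Tet3 gene body, and the call was lost without P0 replicate 1 or 2, P14 replicate 1 or P21 replicate 1. A neighbour at 30.3 kb had no peak at P0, heights of 9.99 and 5.25 at P14, and 11.33 and 3.29 at P21. At the upstream start of Tet3 (mm9 chr6:83405160-83407366) H3K27Ac was not higher later, with 11.19 and 10.24 at P0, 8.86 and 6.35 at P14, and no peak and 7.19 at P21 (adjusted p = 0.786 and 0.303). H3K4me3 there was 38.96 and 35.28 at P0, 25.88 and 37.75 at P14, and 30.58 and 41.40 at P21 (P21 against P0, adjusted p = 0.925), and its mean length was 0.654 and 0.714 of that at P0.

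Tet1 had H3K27Ac heights of 4.64 and 3.64 at P0 (mm9 chr10:62349461-62350194), no peak at P14, and no peak and 3.39 at P21 (adjusted p = 0.231 and 0.483). Its H3K4me3 was 41.05 and 27.22 at P0, 13.10 and 16.75 at P14, and 17.20 and 27.25 at P21. The P14 values were the lowest, and the difference of -0.56 between P21 and P0 (SE 0.31) did not pass (adjusted p = 0.295). Farther inside Tet1 a further region carried H3K27Ac in all 6 libraries (mm9 chr10:62327844-62329606), at 5.95 and 11.02 at P0, 7.58 and 4.10 at P14, and 12.07 and 3.97 at P21. The H3K4me3 region around it (mm9 chr10:62326122-62329531) was at 13.63 and 27.28, 20.32 and 9.42, and 15.38 and 12.44 at those stages. The stages overlapped in both marks.

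Tet2, Mbd2 and Mbd3 kept a peak of both marks at the start in every library. Tet2 (mm9 chr3:133205877-133208182) had H3K27Ac at 11.55 and 13.97 at P0, 13.56 and 11.30 at P14, and 7.08 and 11.11 at P21, and H3K4me3 at 42.86 and 54.75, 48.15 and 44.62, and 37.03 and 48.73 (P21 against P0, adjusted p = 0.674). Mbd2 had H3K27Ac at 8.55 and 14.86, 7.81 and 17.27, and 9.84 and 13.26, and H3K4me3 at 44.32 and 50.53, 37.20 and 49.40, and 37.36 and 63.86 (adjusted p = 0.945). Mbd3 (mm9 chr10:79860082-79863342) had the highest H3K27Ac start region of these genes at P0, at 21.12 and 19.80, with 25.33 and 14.20 at P14 and 14.24 and 10.10 at P21 (P21 against P0, adjusted p = 0.483). Its H3K4me3 was 34.11 and 45.34, 53.40 and 51.91, and 43.80 and 36.24 (adjusted p = 0.975). At P21 the H3K27Ac of Tet2 and Mbd3 lay below both P0 values.

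Over the main start regions of the 9 genes, both P14 libraries lay below both P0 libraries in H3K27Ac for Dnmt1, Dnmt3b, Tet1 and Uhrf1 and above them for Dnmt3a and Tet3, where 31.6% and 14.1% of 11858 coding start regions did so. At P21 those below were Dnmt1, Mbd3, Tet1, Tet2 and Uhrf1 and those above were Dnmt3a and Tet3, against 31.3% and 14.2%. In H3K4me3 at P21, Uhrf1 lay below and Dnmt1 above, with the upstream start of Dnmt3a also above, against 28.1% and 18.5% of 13034 regions. Before scaling, the H3K4me3 heights of P21 and P0 overlapped at each of these starts. In H3K27Ac, Dnmt3b was below at P14 only after scaling. Its unscaled height in P14 replicate 2 (16.46) exceeded both P0 heights (10.25 and 13.37). With 9 genes these counts are not far from the shares over all start regions. No H3K27Ac region was called between P21 and P14 (0%), with 2006 at an unadjusted p under 0.05.

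Other genes of the pathway showed no start region past the threshold between P21 and P0 in either mark. In H3K27Ac these were 0 of 11 other writers and cofactors (such as Hells, Pcna and Uhrf2), 0 of 14 genes of active demethylation and base excision (such as Tdg and Apex1), 0 of 9 other methyl-CpG readers (such as Mbd1) and 0 of 9 placed NuRD subunits of 11 (such as Chd4). By limma's unadjusted p under 0.05 they were 1, 1, 0 and 0. In H3K4me3 they were 0 of 12, 0 of 14, 0 of 9 and 0 of 9, and by unadjusted p 2, 0, 0 and 0. The 9 genes themselves had 1 call in H3K27Ac (Uhrf1, lower, with the limit given above) and 0 in H3K4me3 (1 by unadjusted p, Uhrf1), and over all coding start regions 125 rose and 146 fell of 11858 in H3K27Ac, and 175 rose and 975 fell of 13034 in H3K4me3. The median log2 H3K27Ac difference between P21 and P0 was -0.53 for the writers, 0.08 for the demethylation genes, 0.34 for the readers, -0.46 for NuRD and -0.51 for the 9 genes, against -0.34 over all start regions. In H3K4me3 the median over the 9 genes was 0.04 and over all start regions -0.03.

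Both marks at the cell type markers moved over the same stages, while cell content itself was not measured. The marker values stand beside the absence of later H3K27Ac peaks at Uhrf1 and the higher values at Dnmt3a and Tet3. In H3K27Ac 5 of 12 cycling and progenitor markers fell between P0 and P21 and 0 rose (Sox2, Ccnb1, Top2a, Mki67 and Hmga2), of which all but Sox2 were listed only at P0 and so entered the fit through P0 alone. The summed height of the 12 markers was 111 to 116 at P0, 3.44 to 27.3 at P14 and 0 to 25.9 at P21. Such sums take a single merged region per gene, the highest on average, and need not match the counts of start peaks. In P21 replicate 1 the start peak of Mcm2 lay outside that region. Of 10 rod markers 5 rose and 0 fell (among them Sag, Pde6b, Rcvrn and Reep6), with a summed height of 25.5 to 26.6 at P0, 114 to 221 at P14 and 146 to 282 at P21. The 5 had no H3K27Ac peak listed at P0 and so entered the fit through later libraries alone. Outside the retina, 0 of 1 pigment epithelium marker and 0 of 1 lens marker were called, and of 3 liver and muscle markers Ckm rose. In H3K4me3, Lrat of the pigment epithelium fell, Myod1 of muscle was listed only at P0, and 8 of 10 rod markers rose. The part of cell content in the results on the methylation genes was not tested.

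At P12 the Brg1-deficient libraries were set beside the wild-type library to ask whether marks at these genes differ when Brg1 is lost. With 1 wild-type library per mark there is no test. In H3K27Ac, 7.43% of 32690 regions were more than 2-fold higher in both Brg1-deficient libraries and 0.0245% lower. These regions needed a peak in at least 2 of the 3 libraries, so a region listed only in the wild-type library was left out, and the split of 2428 higher to 8 lower is set by that filter. With no filter it was 2428 to 9515 of 55250 regions, and over 23218 regions with a peak in all 3 libraries it was 34 to 6. No direction is read from these counts. Among the start regions of the 9 genes with a peak in at least 2 of the 3 libraries, none was past 2-fold in both deficient libraries on the log2(height + pseudocount) scale. A farther upstream annotated start of Dnmt3a (mm9 chr12:3802323-3802574) had a peak of 252 bp at a height of 4.30 in wild type and none in either deficient library.

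**Figure D5:**
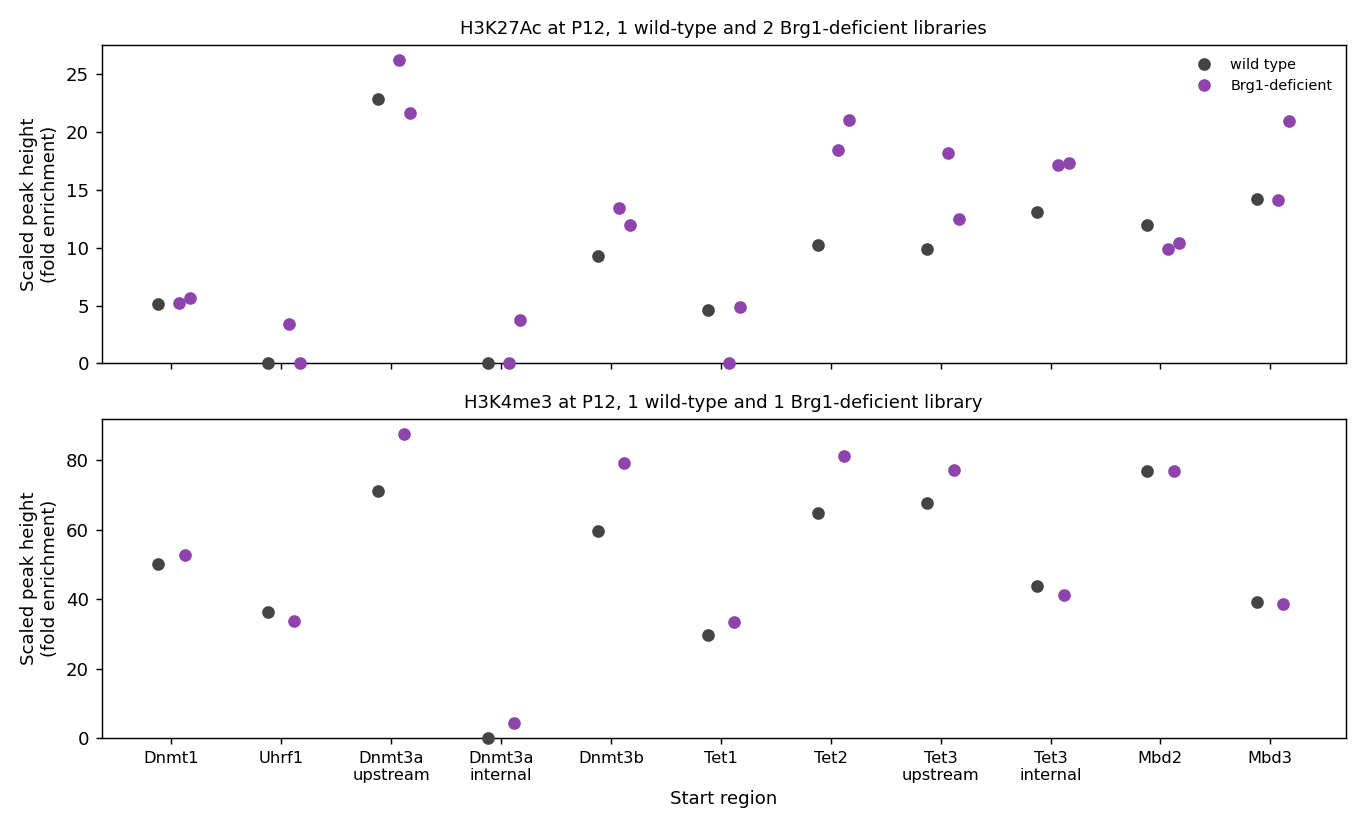
Scaled peak height (fold enrichment) at the start regions of the 9 genes at P12 in wild-type and Brg1-deficient retinae, for H3K27Ac and H3K4me3. Each point is 1 library, and a point at 0 means that no peak was listed. H3K27Ac at Tet2 (10.22 against 18.41 and 21.06) and at both Tet3 starts is higher in both deficient libraries, and the largest H3K4me3 gaps are at Dnmt3b (59.6 against 79.2), Tet2 and the upstream start of Dnmt3a. Before scaling, the direction of these H3K4me3 gaps is reversed.

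Tet2 had an H3K27Ac height of 10.22 in wild type and 18.41 and 21.06 in the Brg1-deficient libraries, or 1.80 and 2.06 times the wild-type height. On the log2 scale that is 0.69 and 0.85, where the median over 11469 start regions was 0.163 and 0.089. Both starts of Tet3 were also higher in both deficient libraries, at 13.07 against 17.18 and 17.35 for the internal start and 9.85 against 18.19 and 12.50 for the upstream one. Dnmt3b was at 9.30 against 13.40 and 11.94. The upstream start of Dnmt3a was at 22.84 against 26.23 and 21.60, Dnmt1 at 5.10 against 5.22 and 5.69, Mbd3 at 14.24 against 14.13 and 20.96, and Mbd2 at 12 against 9.90 and 10.44. Tet1 had 4.58 in wild type, no peak in 1 deficient library and 4.91 in the other. Cycling markers with an H3K27Ac start peak numbered 6 of 12 in the wild-type library and 8 in each deficient library, and their part was not tested.

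In H3K4me3 at P12, 3.31% of 22741 regions were more than 2-fold higher in the Brg1-deficient library and 12.3% lower, or 752 and 2794 regions, which became 316 and 5248 with no scaling. A peak in 1 of the 2 libraries was enough for a region to count here. The wild-type list is also the longer, with 22842 peaks against 19491, so no direction is read from these counts either. The internal start of Dnmt3a had no H3K4me3 peak in wild type and a peak of 215 bp at a height of 4.46 in the deficient library. The same region had no H3K27Ac peak in wild type and in 1 deficient library and a height of 3.77 in the other. No other start region of these genes had an H3K4me3 peak in only 1 of the 2 libraries, and none of the others was past 2-fold. The upstream start of Dnmt3a was at 71.2 in wild type and 87.5 in the deficient library, Dnmt3b at 59.6 and 79.2, Tet2 at 64.8 and 81.3, and the upstream start of Tet3 at 67.7 and 77.2. Dnmt1 was at 50.1 and 52.7, Uhrf1 at 36.2 and 33.7, Mbd2 at 77.0 and 76.9, Mbd3 at 39.2 and 38.6, Tet1 at 29.7 and 33.4, and the internal start of Tet3 at 43.7 and 41.1. Before scaling, every start region with a peak in both libraries was lower in the deficient one. Dnmt3b was then at 74.9 in wild type and 63.1 in the deficient library, Tet2 at 81.4 and 64.7, and upstream Dnmt3a at 89.5 and 69.6. The higher scaled values thus depend on the scaling.

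Brg1 itself was found at a start of all 9 genes at P0, against 56.9% of coding genes. Its highest peaks among them were at Mbd3, with a deposited height of 15.1 (percentile 99.7 of the 50861 Brg1 peaks), at the upstream start of Tet3, at 12.9 (percentile 99.3), and at Uhrf1, at 11.1 over 3321 bp (percentile 98.4). Both starts of Dnmt3a had Brg1, at most 7.87 upstream and 7.73 at the internal start, where 4 Brg1 peaks lay within 2 kb. Dnmt3b reached 7.43, Tet2 8.16, Mbd2 7.31 and Dnmt1 5.83, and the internal start of Tet3 5.33 over 3920 bp. Tet1 was lowest at its start with 5.09 (percentile 70.4), below the 6.51 of the Brg1 peak in its inner region. With 1 library these heights have no replicate.

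H3K27me3, the Polycomb mark, was listed most often at Tet1. Tet1 was the only one of the 9 genes with an island at its start in all 9 libraries, against 14.7% of coding genes, and so had H3K4me3, Brg1 and H3K27me3 there. These libraries are of whole retina, in which marks on the same and on different cells cannot be told apart. Dnmt1 had an island near its upstream start, away from the region with H3K4me3, in 6 of the 9 libraries, and none in P14 replicate 1 or in either wild-type library at P12. At P12, where another antibody was used than at the other stages, Dnmt3b had an island in the Brg1-deficient library and in 1 of 2 wild-type libraries, and the upstream start of Dnmt3a only in the Brg1-deficient library. Tet3 at its upstream start had one in P0 replicate 2 and wild-type P12 replicate 2, Tet2 in P0 replicate 2, and Mbd2 in wild-type P12 replicate 2. Uhrf1 and Mbd3 had none in any library. Per library 1 to 4 of the 9 genes had an island, while the share of coding genes was 23.6% to 32.6%. The island lists were uneven over chromosomes, with 0 to 3330 islands on chromosome X, so a missing island does not show that the mark was absent.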

How the data were processed

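Brg1 (1 library), H3K27Ac (9 libraries), H3K4me3 (8) and H3K27me3 (9) were analysed from lists made per library, on mm9. Samples were grouped by their GEO titles, and no files of the input libraries were used here. The submitters' processing notes name BWA 0.5.9-r26, Picard 1.65, SAMtools, MACS2 2.0.9, SICER 1.1, bedtools 2.17.0, R 2.14.0 and CASAVA, without roles. In the peak lists the authors deposited a fold enrichment for each peak (column 7, a ratio to background) and a −log10 q-value (column 9). The island lists hold a deposited score in column 4, whose meaning is not given in the sources used here, so islands were read as present or absent.

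No mm9 annotation was used. RefSeq GRCm38 starts were shifted to mm9 by the offset that placed most coding starts within 5 Mb, then within 1 Mb, on the P0 H3K4me3 peaks of replicate 1, counting a start within 1 kb of a peak as placed. Genes without a clear best offset (1806 of 21631) were left out. Around Dnmt3a the second choice moved the offset by -6250 bp, and around Mbd2 it placed 5 of 14 starts. A start region is the merged peak region within 2 kb of a start with the highest mean height.

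Peaks that overlapped between libraries were merged into regions, each library received its highest fold enrichment or 0, and heights were scaled to the median of regions with a peak in every library. Regions with a peak in at least 2 of 6 wild-type libraries (33339 for H3K27Ac, 21072 for H3K4me3) were fitted with limma 3.58.1 (lmFit, eBayes; R 4.3.3) on log2(height + 5th percentile of heights, 2.08 and 3.28), with Benjamini-Hochberg adjustment over all regions at 0.05. Differences on this scale understate changes of low regions, and none is given where a stage had no peak. The fit was also run on simulated log2 heights with normal noise around the mean of each region. Unlisted peaks were not simulated, so that run does not bear on calls where a stage had no peak. P12 has no test, and a region counts there past 2-fold (for H3K27Ac in both deficient libraries, with a peak in at least 2 of 3 libraries). All genes of the list were described, regions of a gene body singly where high in 2 libraries or specific to a stage, and other lists by counts with at most 5 called genes named. Some listed genes are counted and not named here. The members, lists and tests were chosen with earlier results of these data known. Alternatives were another pseudocount (1), no scaling, percentiles, complete regions, the upper 50% of peaks by −log10 q-value, peaks up to 500 bp apart merged, other start windows, the replicate block, and each library left out. Python 3.11.15, numpy 2.4.6, pandas 2.3.3 and matplotlib 3.10.9 were used. Read depth is unknown, and weak peaks depend on it.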

Additional observations from a re-analysis of the deposited data

How the results depend on the processing

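The number of H3K27Ac regions called between P21 and P0 (3470) was 0 with no scaling, with percentiles, with the upper 50% of peaks by −log10 q-value and with the replicate number as a block, 234 over regions listed in all 6 libraries (complete regions), and 0 to 7205 without 1 library. Between P14 and P0 it went from 0 to 2489 with a pseudocount of 1 and 105 with complete regions. For H3K4me3 at P21 against P0 (4341) it was 0 with no scaling and with percentiles, 1490 with complete regions, 555 with the upper 50% of peaks, 5845 with the replicate block, and 675 to 4191 without 1 library (932 and 675 without P0 replicates 1 and 2, 2468 and 2245 without P21 replicates 1 and 2). At P14 against P0 (3331) it was 0, 0, 598 and 679 under those settings and 0 to 3561 without 1 library (0 without either P14 library, 241 and 218 without P0 replicates 1 and 2), and at P21 against P14 it went from 0 to 228 with a pseudocount of 1. At P12, the H3K27Ac regions past 2-fold (2436) numbered 3804 past 1.5-fold, 1038 with the upper 50% of peaks, 11943 with no filter on the number of libraries, 40 with a peak in all 3 libraries, and 4897 to 6895 with 1 of the 2 Brg1-deficient libraries left out. Those of H3K4me3 (3546) numbered 5564 with no scaling, 7694 past 1.5-fold and 1233 with the upper 50% of peaks. The number of genes with an H3K27me3 island in every library was 0 in place of 1 with the 50% of islands ranked highest. With no scaling the median H3K27Ac difference over all regions between P21 and P0 moved from 0.52 to 0.23 on the log2 scale. The cause of these shifts was not tested.

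The H3K27Ac difference at Uhrf1 by P21 had adjusted p-values from 0.0295 to 0.183, over the threshold with no scaling (0.0837), percentiles (0.0789), the upper 50% of peaks (0.078) and the replicate block (0.0936), and at P14 it passed only with a pseudocount of 1 (0.0486). At the internal start of Dnmt3a the range at P21 was 0.0295 to 0.457, and it passed with a pseudocount of 1, with peaks up to 500 bp apart merged (0.0494), with only the 2 stages compared (0.0497) and without P14 replicate 2 (0.0295). The calls in the Dnmt3a and Tet3 gene bodies in H3K27Ac were lost with no scaling, percentiles, merging and the replicate block. The H3K4me3 region of Tet3 at 23.0 kb was lost with no scaling (0.0729) and percentiles (0.205). The H3K27Ac difference of Dnmt3b between P21 and P0 was -1.34, 0.006 without P21 replicate 1 and -2.72 without P21 replicate 2. The 5 Mb offset alone, the libraries numbered 2 and the other filters at P12 were added after seeing the data.

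Replicate numbers were not shown to pair the libraries. The correlation of replicate differences across H3K27Ac regions was 0.080 between P0 and P14, 0.015 between P0 and P21 and 0.447 between P14 and P21, and 0.057 for H3K4me3 between P0 and P21. The H3K4me3 libraries of P14 share only number 2 with the other stages, so that comparison has no block. Depth limits the presence of weak peaks, and a stage with 2 libraries limits every test.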
